A study of Homo sapiens with 6 samples.

Results

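The AP-1 and early growth response factors are a group of transcription regulators that cells make quickly and briefly after growth factors, serum or stress. The 10 genes described here are the Jun family (JUN, JUNB, JUND), the Fos family (FOS, FOSB, FOSL1, FOSL2), their ATF-family partner ATF3, the zinc finger factor EGR1 and the immediate early response gene IER2. They were chosen by name, as the genes to which the platform annotation assigns probe sets under exactly 1 of these symbols, which gave 10 of the 18656 genes measured and 68 of 224320 single-gene probe sets. RNA came from AGS, an established human gastric adenocarcinoma line. The 3 inhibitor arrays held cells transfected with an oligonucleotide inhibitor of miR-25-3p, and the 3 control arrays held cells transfected with a non-targeting RNA. In both groups the lipid transfection was repeated after 24 h and RNA was taken 48 h after the first, and the labels give no other difference between the groups. All arrays are of 1 cell line, and the labels call the replicates biological without saying whether they were separate cultures, so p-values measure only the spread between these arrays.

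Jun and Fos proteins bind DNA as dimers joined by a leucine zipper. Fos proteins need a partner, whereas Jun proteins can also pair with each other. FOS, EGR1 and IER2 are classic immediate-early genes, whose transcription follows ERK signalling through serum response factor, and JUN is further raised by JNK. JUND, FOSL1 and FOSL2 usually last longer in growing cells. AP-1 is known in gastric and other carcinomas for driving matrix proteases, cyclin D1 and growth factor genes.

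MicroRNAs pair with messages mainly through bases 2 to 8, the seed, and an inhibitor of miR-25-3p is designed to block that pairing. The RefSeq table of GRCh38.p14 holds 6 mature sequences at 7 loci with this seed, of which 3 are shown to make clear what the inhibitor was aimed at and which relatives carry the same seed. The seed is in capitals, and miR-25-3p lies at chr7:100093571-100093592 on the minus strand.
hsa-miR-25-3p: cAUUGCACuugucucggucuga
hsa-miR-92a-3p: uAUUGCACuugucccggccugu
hsa-miR-32-5p: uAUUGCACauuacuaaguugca
The mature microRNAs were not measured on these arrays.

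Start-site windows of 4 members are shown because JUN and FOSL2 are the members whose inhibitor arrays all lay below the control arrays, while FOS and EGR1 are serum-response genes whose arrays overlapped. Each window runs from 250 bases before to 50 bases after the RefSeq start site on GRCh38.p14, and 9 of the 10 members matched the table.
JUN (chr1:58783998-58784297, minus strand): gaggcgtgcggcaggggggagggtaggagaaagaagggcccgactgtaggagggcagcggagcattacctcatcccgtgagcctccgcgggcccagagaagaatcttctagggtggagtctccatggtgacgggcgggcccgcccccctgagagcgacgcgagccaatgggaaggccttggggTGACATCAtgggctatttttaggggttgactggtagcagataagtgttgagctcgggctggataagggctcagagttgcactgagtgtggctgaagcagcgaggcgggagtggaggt
FOSL2 (chr2:28392608-28392907, plus strand): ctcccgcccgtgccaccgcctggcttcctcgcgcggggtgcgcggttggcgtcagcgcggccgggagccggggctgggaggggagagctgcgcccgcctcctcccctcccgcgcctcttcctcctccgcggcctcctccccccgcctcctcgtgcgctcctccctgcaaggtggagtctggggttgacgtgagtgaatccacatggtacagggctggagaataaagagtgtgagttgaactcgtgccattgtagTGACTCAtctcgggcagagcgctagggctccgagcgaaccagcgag
FOS (chr14:75278578-75278877, plus strand): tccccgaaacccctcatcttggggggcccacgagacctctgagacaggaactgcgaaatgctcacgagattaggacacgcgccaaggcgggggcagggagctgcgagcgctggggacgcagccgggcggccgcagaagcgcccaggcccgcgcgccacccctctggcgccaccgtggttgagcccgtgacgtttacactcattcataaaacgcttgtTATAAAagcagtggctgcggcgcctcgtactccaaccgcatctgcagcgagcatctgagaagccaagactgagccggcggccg
EGR1 (chr5:138465229-138465528, plus strand): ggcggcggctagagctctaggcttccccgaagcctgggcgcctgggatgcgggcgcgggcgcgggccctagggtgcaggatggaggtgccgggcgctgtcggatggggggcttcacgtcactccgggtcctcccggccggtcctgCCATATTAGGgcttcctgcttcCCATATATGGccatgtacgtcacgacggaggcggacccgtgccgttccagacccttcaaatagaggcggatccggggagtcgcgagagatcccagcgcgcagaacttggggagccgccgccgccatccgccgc
Capitals mark matches, on either strand, to the AP-1 site TGACTCA, its cyclic AMP response form TGACGTCA, the variant TGACATCA, the EGR sites GCGTGGGCG and GCGGGGGCG, the CArG box bound by serum response factor, and the TATA element TATAAA. No marked matches overlapped each other. JUN held TGACATCA from base -67 to -60 of its start site, and this motif was in 2.61% of the 35116 windows of the same length in the table. FOSL2 held TGACTCA at bases 5 to 11, a motif found in 4.95% of windows. EGR1 held a pair of CArG boxes, at -105 to -96 and -83 to -74, and 1.29% of windows held at least 1. FOS held TATAAA at -33 to -28, as 11.5% of windows did, and no other searched motif in this window. Among the members not shown, JUND held TGACGTCA, which 1.85% of windows held, and ATF3 held TGACATCA. TATAAA was also in the windows of JUNB, FOSB and ATF3, so that 4 of the 10 member windows held it. A match describes letters only.

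None of the 10 genes differed between the groups by the test across all genes. Limma with Benjamini-Hochberg adjustment called 0 of 18656 genes (0%), and JUN, FOSB and FOSL2 had the lowest adjusted p of the members, each 0.79. Of the 10 members, 8 had a negative and 2 a positive difference, with a median of -0.10 on the log2 scale, against 9205 of all genes negative (49.3%) and a median of 0.0021. At an unadjusted p under 0.05, 2 members were lower and 0 higher, where 3.16% of all genes were lower and 2.95% higher. The inhibitor arrays lay wholly below the control arrays for 2 members and wholly above for 0, where 7.68% of all genes lay below and 5.2% above. Fewer cells of a kind and less RNA per cell cannot be told apart in bulk RNA.

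**Figure D1:**
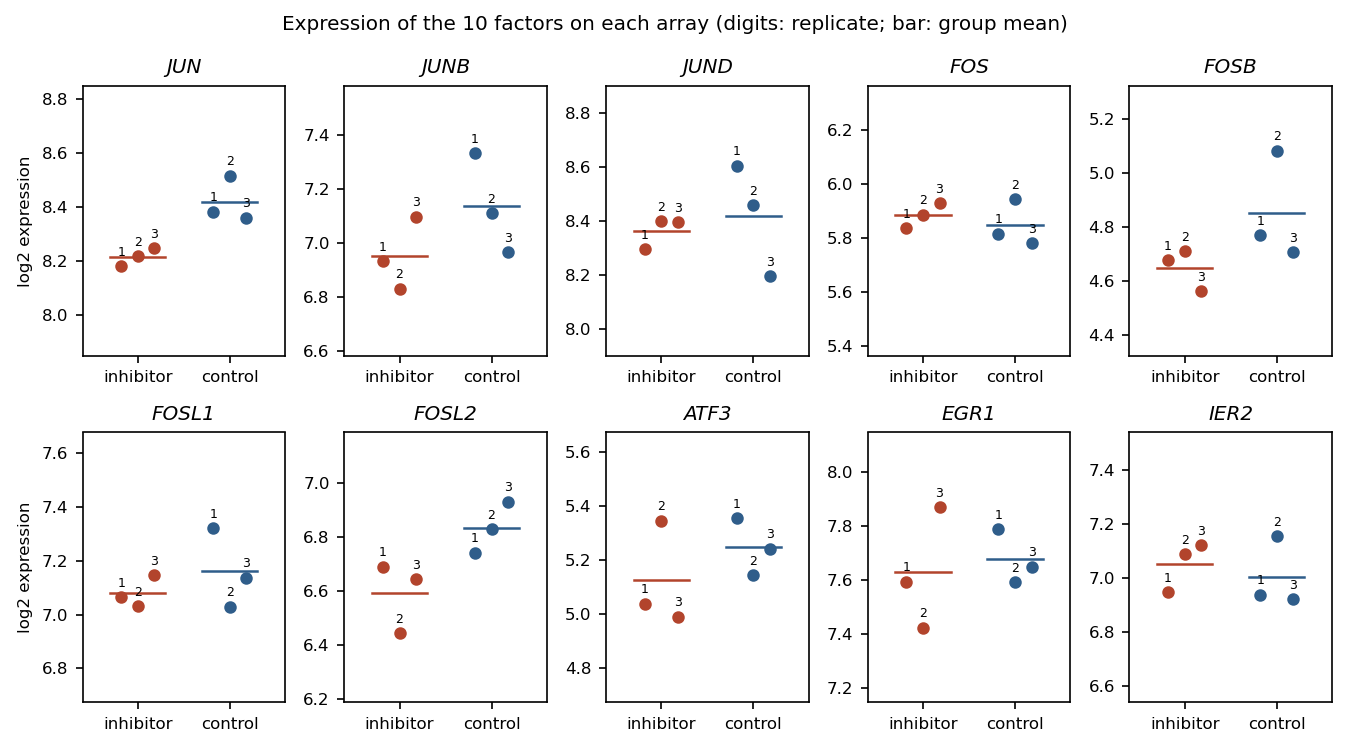
Log2 expression of each of the 10 factors (vertical axis, each panel spanning 1 log2 unit) on the 3 inhibitor arrays (red) and the 3 control arrays (blue), with the replicate number over each point and a bar at the group mean. The groups do not overlap for JUN and FOSL2 and overlap for the other 8 genes.

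Expression is given on the log2 scale throughout, so that a difference of -0.20 is a ratio near 0.87, and values of different genes rest on different probes and are not compared as amounts of RNA. JUN, the founding AP-1 subunit and a target of JNK, had 8.18, 8.22 and 8.25 on the inhibitor arrays, against 8.38, 8.52 and 8.36 on the control arrays. All 3 inhibitor values lay below the lowest control value, by a narrow gap. Its group means were 8.21 ± 0.033 with inhibitor and 8.42 ± 0.084 with control (SD, n = 3 each), a log2 difference of -0.20 (SE 0.087, 95% interval -0.40 to -0.0054; limma adjusted p 0.79). JUN also had a small spread within groups, with a pooled SD of 0.064 that was as low in only 9.48% of all genes. JUNB, which can restrain JUN and is itself an immediate-early gene, had 6.93, 6.83 and 7.10 with inhibitor, against 7.33, 7.11 and 6.97 with control. The groups overlapped, since inhibitor replicate 3 exceeded control replicate 3. Its log2 difference was -0.18 (SE 0.12, 95% interval -0.46 to 0.090; limma adjusted p 0.80). JUND, the Jun protein most abundant in resting cells, had 8.30, 8.40 and 8.40 with inhibitor, against 8.61, 8.46 and 8.20 with control. The control arrays spanned the inhibitor values on both sides, and the log2 difference was -0.057 (SE 0.12; limma adjusted p 0.94).

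FOS, the prototype immediate-early gene, had 5.84, 5.89 and 5.93 on the inhibitor arrays, against 5.82, 5.95 and 5.78 on the control arrays. The groups overlapped, with a log2 difference of 0.036 (SE 0.089, 95% interval -0.17 to 0.24; limma adjusted p 0.95). FOSB, a close relative that also gives a truncated stable form, had 4.68, 4.71 and 4.56 with inhibitor, against 4.77, 5.08 and 4.71 with control. Control replicate 2 stood highest, and the lowest control value fell within the inhibitor range. The log2 difference of FOSB was -0.20 (SE 0.12, 95% interval -0.47 to 0.062; limma adjusted p 0.79). FOSL1, or Fra-1, a Fos protein without a transactivation domain that is itself induced by AP-1, had 7.06, 7.03 and 7.15 with inhibitor, against 7.32, 7.03 and 7.14 with control. Only control replicate 1 lay above all inhibitor arrays. The log2 difference of FOSL1 was -0.081 (SE 0.10; limma adjusted p 0.89). FOSL2, or Fra-2, its longer-lived relative, had 6.69, 6.44 and 6.64 with inhibitor, against 6.74, 6.83 and 6.93 with control. No inhibitor array reached the lowest control array, with inhibitor replicate 2 furthest below. Its group means were 6.59 ± 0.13 with inhibitor and 6.83 ± 0.095 with control (SD, n = 3 each). The log2 difference of -0.24 (SE 0.10, 95% interval -0.47 to -0.0084) was the most negative of the 10, and limma gave it an adjusted p of 0.79.

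ATF3, a stress-induced factor that pairs with Jun proteins and often represses, had 5.04, 5.35 and 4.99 on the inhibitor arrays, against 5.35, 5.14 and 5.24 on the control arrays. Inhibitor replicate 2 lay among the controls and the other two below them. The log2 difference of ATF3 was -0.12 (SE 0.12; limma adjusted p 0.86). EGR1, which binds GC-rich promoters and induces its own corepressor NAB2, had 7.59, 7.42 and 7.87 with inhibitor, against 7.79, 7.59 and 7.65 with control. The inhibitor arrays lay on both sides of the controls, and the log2 difference of EGR1 was -0.047 (SE 0.13, 95% interval -0.33 to 0.24; limma adjusted p 0.96). IER2, an immediate-early gene without a bZIP domain, had 6.95, 7.09 and 7.12 with inhibitor, against 6.94, 7.16 and 6.92 with control. These values overlapped, and the log2 difference of IER2 was 0.047 (SE 0.10; limma adjusted p 0.94).

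**Figure D2:**
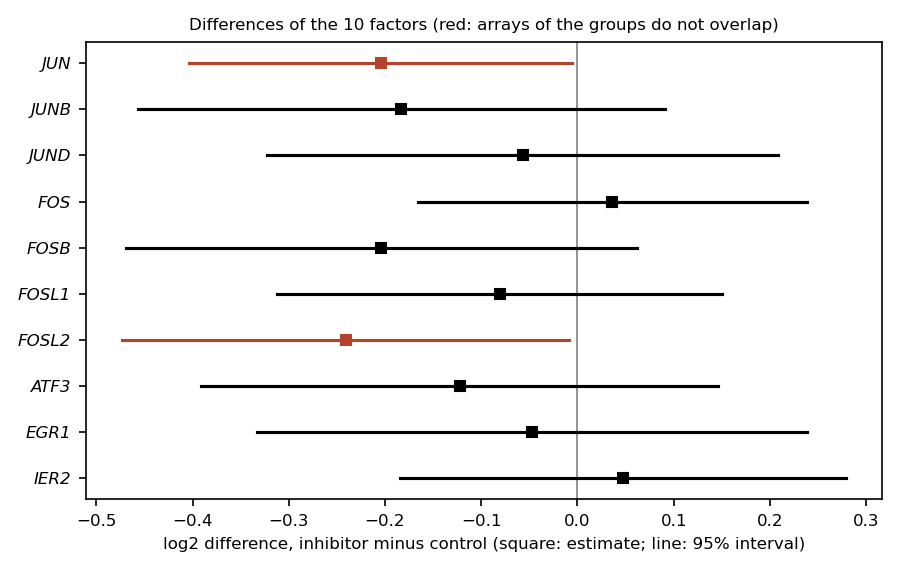
Log2 difference of each factor, inhibitor minus control (horizontal axis), as the estimate (square) with its 95% interval from limma (line), in red where the arrays of the groups do not overlap. The intervals of JUN and FOSL2, not adjusted for the number of genes, end just below 0, and those of the other 8 genes include it.

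The intervals bound the difference in each gene's value, the mean of its probe sets. For every member the 95% interval lay between -0.47 and 0.28. Halving or doubling of that mean, a log2 difference of -1 or 1, lay outside the intervals of all 10. Dim probe sets enter some of these means, and the intervals do not exclude such a change in the RNA itself. Single dim probe sets differed by more, at 1.08 for FOS and -1.35 for FOSB. These intervals are not adjusted for the 18656 genes tested. The negative sign was shared by the 3 Jun genes, 3 of the 4 Fos genes, ATF3 and EGR1, while FOS at 0.036 and IER2 were positive. FOS turned to -0.14 without the dimmest 30% of probe sets. The signs of JUND, FOSB, ATF3, EGR1 and IER2 also turned under at least 1 alternative processing choice. JUND at -0.057 and FOSL1 at -0.081 were nevertheless about as close to 0 as EGR1 at -0.047 and IER2 at 0.047, and no difference between these families was tested.

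The high values were not spread evenly over the control arrays. Control replicates 1 and 2 were each the highest array for 4 of the 10 genes, and an inhibitor array was lowest for 6, replicate 2 for 3 of them. After centring each gene on its mean over the 6 arrays, the mean of the members was -0.082, -0.070 and -0.0073 on the inhibitor arrays, against 0.098, 0.079 and -0.018 on the control arrays. Control replicate 3 therefore lay among the inhibitor arrays. Control replicate 1 was also the array least like the others over all genes, with a mean correlation of 0.9915 to them against 0.9933 to 0.9938 for the other 5. Without control replicate 1 the members' median difference was -0.035 and 6 of 10 were negative. JUN and FOSL2 then had log2 differences of -0.22 and -0.29, against -0.20 and -0.24 with all 6 arrays.

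Each gene value is the mean of several exon-sized probe sets, which differed among themselves. Of the 68 probe sets of the 10 genes, 49 had a negative difference (72.1%), against 49.8% of all probe sets. The inhibitor arrays lay wholly below the control arrays for 12 and wholly above for 0, where 6.32% of all probe sets lay below and 5.89% above. Limma called 0 of 224320 probe sets (0%), with 6.21% at an unadjusted p under 0.05, and 5 of the 68 probe sets were among those. Probe sets of a gene read the same RNA on the same arrays and are not replicates of each other.

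The probe sets of JUN and JUNB had 1 direction throughout. All 5 of JUN were negative, from -0.29 to -0.040, and 3 had no overlap of arrays. The brightest, for example, had 9.46, 9.29 and 9.38 on the inhibitor arrays, against 9.69, 9.69 and 9.63 on the control arrays. FOSL2 had 10 of 12 probe sets negative, and 3 without overlap. The probe set with the smallest p had 7.48, 7.28 and 7.18 with inhibitor, against 7.98, 7.79 and 7.64 with control. Of the 4 FOSL2 probe sets below 6.215, the median level of all single-gene probe sets, 2 were positive, at 0.28 and 0.31, and 2 negative, at -0.27 and -0.89. All 3 JUNB probe sets were negative, from -0.20 to -0.17, 1 of them without overlap. FOSL1 had 6 of 7 negative, from -0.27 to 0.047.

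The remaining members were mixed. FOS had 4 negative and 3 positive probe sets, and its dimmest one was at 2.70, 3.02 and 3.41 with inhibitor, against 2.83, 1.72 and 1.34 with control. That probe set alone had a log2 difference of 1.08, while the 4 negative ones ranged from -0.45 to -0.17. For FOSB a similarly dim probe set went the other way, at 1.74, 2.57 and 1.41 with inhibitor, against 2.18, 3.97 and 3.62 with control, a log2 difference of -1.35. Its brightest probe set was also negative, at 7.73, 7.64 and 7.35 with inhibitor, against 7.96, 7.94 and 8.0 with control, whereas 3 others were positive. ATF3 had 9 of 13 negative, EGR1 3 of 5, JUND 2 of 3 and IER2 3 of 6. For EGR1 the brightest pair had differences of -0.083 and -0.15, and the largest positive one was 0.36.

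**Figure D3:**
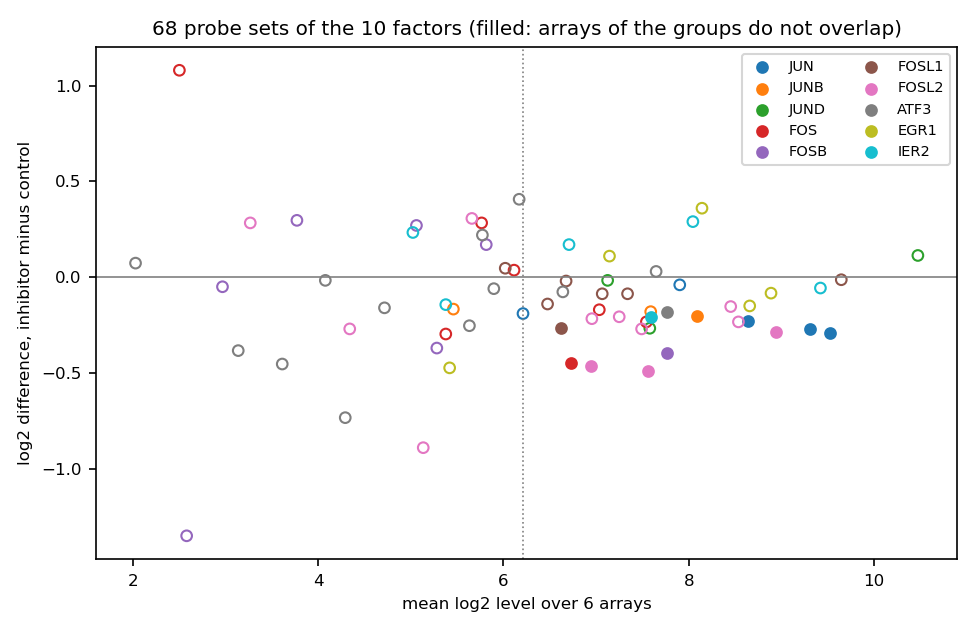
Log2 difference, inhibitor minus control (vertical axis), against mean log2 level over the 6 arrays (horizontal axis) for the 68 probe sets of the 10 factors, coloured by gene and filled where the arrays of the groups do not overlap. The dotted line is the median level of single-gene probe sets, 6.215, and all 12 filled points lie to its right and below 0.

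Splitting the 68 probe sets at the median level of all single-gene probe sets, a log2 value of 6.215, separated these patterns. This split was chosen after the values were seen and carries no test. Of the 38 at or above it, 32 were negative (84.2%) and all 12 probe sets without overlap were among them (31.6%). Over all probe sets at or above that level, 50.8% were negative, 7.78% lay wholly below and 6.55% wholly above. Of the 30 below it, 17 were negative (56.7%), against 48.9% of all probe sets below that level. Of these 30, 0 lay wholly below, where 4.88% of all such probe sets did. Standard errors were 0.13 to 0.27 for the brighter and 0.14 to 0.63 for the dimmer ones. With the dimmest 30% of all probe sets left out before averaging, FOS turned to -0.14, FOSB shrank to -0.081 and ATF3 to -0.0096, while FOSL2 was at -0.29 and JUN stayed at -0.20, and 0 members were called by limma.

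Other genes of the same circuit were examined as lists, described here by counts and medians without a test of the list. The lists were drawn up with earlier results of these data known. Limma called 0 genes of each list after adjustment over all genes. Other immediate-early genes had 19 of 25 negative and a median log2 difference of -0.068, where 49.3% of all genes were negative. At an unadjusted p under 0.05 there were 3, all lower, where 3.16% of all genes were lower and 2.95% higher. The arrays did not overlap for 5, all lower, where 7.68% of all genes lay wholly below and 5.2% wholly above. IER5L, a relative of the IER genes, had 6.49, 6.90 and 6.77 with inhibitor, against 7.05, 7.11 and 7.11 with control, so that no arrays overlapped. Its log2 difference was -0.37 (SE 0.12; limma adjusted p 0.79). The matricellular gene CCN1 had a log2 difference of -0.34 (SE 0.11). ZFP36, an RNA-decay factor induced beside FOS, had 8.12, 8.21 and 8.11 with inhibitor, against 8.53, 8.41 and 8.36 with control, again without overlap. It is named after its values were seen. On the positive side, IER5 had 0.15 (SE 0.15) and the orphan nuclear receptor NR4A3 0.071 (SE 0.084). Of the other EGR genes, EGR2 had 0.042 (SE 0.11), EGR3 -0.20 (SE 0.14) and EGR4 -0.048 (SE 0.089), none of them called in limma.

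Other bZIP proteins, a list of Jun or Fos partners and of relatives such as CREB1, CREM and ATF6, were balanced. Of the 18 measured genes 9 were negative, with a median of -0.011. JDP2, which pairs with JUN and represses AP-1 sites, had 8.05, 8.08 and 8.06 on the inhibitor arrays, against 7.92, 7.90 and 7.77 on the control arrays. All inhibitor values lay above all control values, as for 5.2% of all genes. JDP2 was the 1 gene of this list at an unadjusted p under 0.05, where 3.16% of all genes were lower and 2.95% higher. Its log2 difference was 0.20 (SE 0.087; limma adjusted p 0.79). CEBPD had 0.18 (SE 0.11). On the negative side were BATF, a Jun partner of lymphoid cells, at -0.19 (SE 0.12) and CEBPB at -0.10 (SE 0.093).

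The list of serum response factor, its cofactors and the EGR corepressors NAB1 and NAB2 had 7 of 8 genes negative, with a median of -0.10. MRTFA, the actin-sensing coactivator of serum response factor, had 7.66, 7.62 and 7.73 with inhibitor, against 7.86, 7.84 and 7.81 with control. The arrays did not overlap, and the log2 difference was -0.17 (SE 0.083; limma adjusted p 0.79). SRF itself had -0.11 (SE 0.098) and ELK4, the 1 positive member, 0.025 (SE 0.083). ERK, JNK and p38 kinases and their activators had 11 of 17 negative and a median of -0.062, with MAP2K3 at -0.17 (SE 0.094) and MAP2K2 at -0.19 (SE 0.11) against MAPK9, which encodes a JNK, at 0.12 (SE 0.10) and RPS6KA1 at 0.060 (SE 0.097). None of these genes had an unadjusted p under 0.05, where 3.16% of all genes were lower and 2.95% higher. In the list around serum response factor 1 gene lay wholly below the control arrays, and among the kinases 2 did, with 0 wholly above. Of all genes, 49.3% were negative, 7.68% lay wholly below and 5.2% wholly above.

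Downstream, reported AP-1 target genes had 14 of 23 negative and a median of -0.041. PLAU, the urokinase gene, had 3.60, 3.70 and 3.61 on the inhibitor arrays, against 3.95, 4.22 and 3.75 on the control arrays, a low signal without overlap. Its log2 difference was -0.33 (SE 0.12), and that of HMOX1, heme oxygenase, was -0.29 (SE 0.11), each at a limma adjusted p of 0.79. On the other side, IL6 had 0.26 (SE 0.12), also without overlap though by a narrow gap, and the collagenase gene MMP13 0.19 (SE 0.14). Both were at dim levels, with means of 3.24 and 2.90 on the inhibitor arrays. In this list the inhibitor arrays lay wholly below the control arrays for 3 genes and wholly above for 1. Over all genes, 7.68% lay wholly below and 5.2% wholly above. Reported EGR1 targets had 8 of 13 negative, where 49.3% of all genes were, and a median of -0.024. F3, tissue factor, was at -0.25 (SE 0.096) and THBS1, thrombospondin, at -0.16 (SE 0.094). Among the EGR1 targets 3 genes lay wholly below the control arrays and 0 wholly above, beside the same shares over all genes. IGF2 had 0.28 (SE 0.19) and TGFB1, which is also on the AP-1 target list, 0.069 (SE 0.098). NAB2, the EGR1-induced corepressor, is counted both here and in the list around serum response factor, and had -0.11 (SE 0.096).

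**Figure D4:**
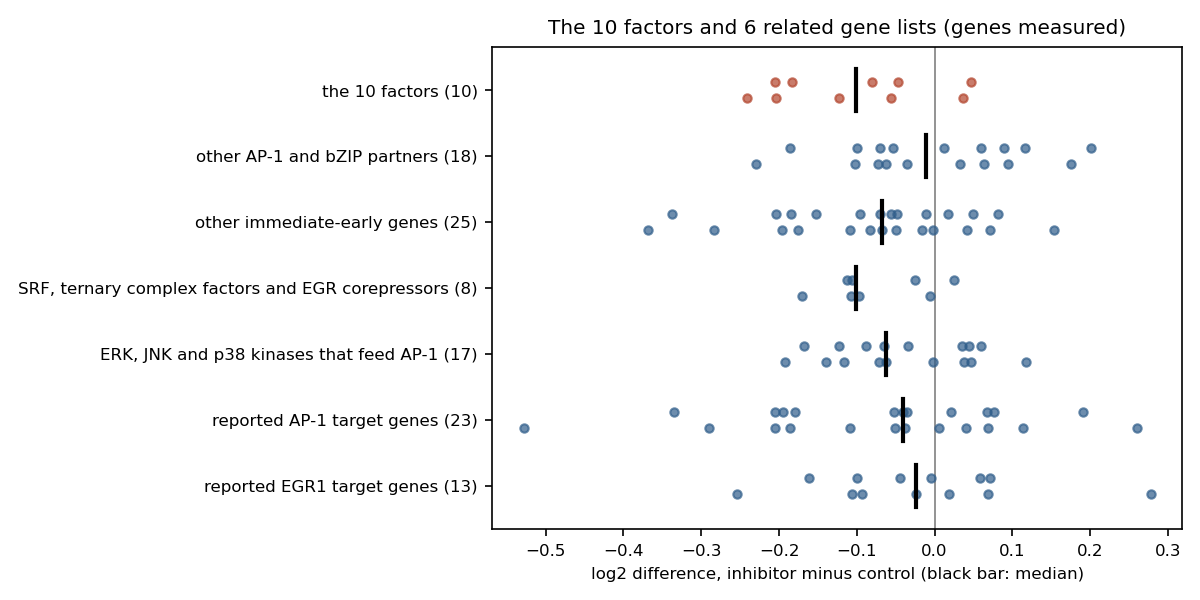
Log2 differences, inhibitor minus control (horizontal axis), of the 10 factors (red) and of 6 related lists (blue), 1 point per gene, with the number of genes measured in brackets and the list median as a black bar. Medians run from -0.10 for the 10 factors and for the list around SRF to -0.011 for other bZIP proteins.

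Genes most like the members in their pattern over the 6 arrays were found by the smallest root mean square difference between mean-centred log2 values, among genes at least as variable as the profile. For the mean of the 10 members these were RGL3 (0.017), SNORD115-48 (0.017) and NHERF1 (0.023), out of 16803 genes compared. All of them had their lowest values on inhibitor replicates 1 and 2 and their highest on control replicates 1 and 2, as the members' mean did. They were chosen for likeness to that mean, so this shared order follows from the choice. SNORD115-48 had a very low signal, from 1.57 to 1.77. For FOSL2, the member with the smallest p, they were UBN1 (0.041), TSPAN12 (0.051) and GAS2 (0.051), out of 6498 genes.

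The identity of the cells was checked with fixed markers. The 10 epithelial markers, among them KRT8 and EPCAM, had group means from 6.78 to 11.97 with inhibitor and from 7.01 to 12.03 with control. The mean over the 6 fibroblast markers was 4.19 to 4.31 on the inhibitor arrays and 4.14 to 4.35 on the control arrays. Over the 6 endothelial markers it was 3.88 to 3.92 with inhibitor and 3.89 to 4.08 with control. Over the 5 of 6 leukocyte markers measured it was 5.12 to 5.23 with inhibitor and 5.00 to 5.10 with control, where LYZ alone had 8.79 with inhibitor and 8.84 with control. PTPRC, the defining leukocyte gene, had 2.62 with inhibitor and 2.55 with control. CD14 had 4.71 with inhibitor and 4.25 with control, and CD68 had 6.01 with inhibitor and 6.12 with control. Of the 5 leukocyte markers, CD14 had its inhibitor arrays wholly above the control arrays and CD68 wholly below. Over all genes, 5.2% lay wholly above and 7.68% wholly below. COL1A1, the highest fibroblast marker, had 6.37 with inhibitor and 6.39 with control. Of the endothelial markers 4 were negative and 2 positive, with PECAM1 lowest at a log2 difference of -0.46 (SE 0.17). Limma called 0 markers. The part of other cell types in the members' differences was not tested.

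The dependence of each member on the processing varied. JUN and FOSL2 were negative under all 16 alternatives, JUN from -0.29 to -0.16 and FOSL2 from -0.31 to -0.17, with limma adjusted p from 0.53 to 0.91 for JUN and from 0.54 to 0.91 for FOSL2. JUNB, from -0.27 to -0.085, and FOSL1, from -0.15 to -0.0017, kept their sign too. The signs of JUND, FOS, FOSB, ATF3, EGR1 and IER2 turned under at least 1 alternative. The replicate block, the filter that drops dim genes and the changed variance estimates cannot alter a difference in this design. A sign kept under those alternatives was therefore fixed in advance.

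**Figure D5:**
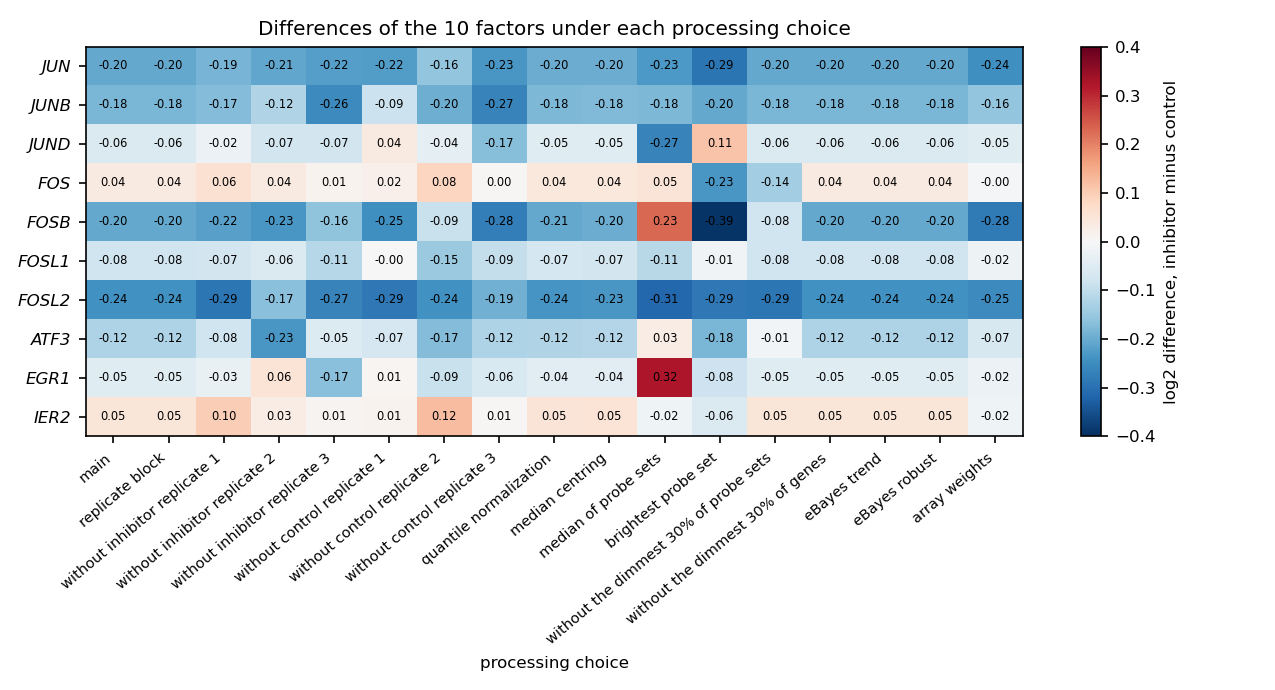
Log2 difference, inhibitor minus control (colour and printed value), of each factor (vertical axis) in the fit as reported and under 16 alternative processing choices (horizontal axis). JUN, JUNB, FOSL1 and FOSL2 are negative in every column, while EGR1 runs from -0.17 to 0.32. Columns for the replicate block, the filter on dim genes and the eBayes trend and robust fits repeat the reported differences by construction.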

How the data were processed

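The authors deposited log2 expression values of 257430 exon-sized probe sets on 6 Affymetrix Human Gene 1.0 ST arrays, 1 column per array. Per the labels' protocols, cDNA was made from 500 ng of total RNA. Transcriptome Analysis Console, Affymetrix Expression Console and RMA are named, with no version, in the submitters' processing notes. Because RMA equalizes the distributions of the arrays, a shift common to most genes could not be seen. The number of arrays limits the precision, and scan dates were not used here.

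A gene's value was the mean log2 of the probe sets naming it alone. Older symbols were updated through RefSeq where unambiguous, which left 18656 genes and altered no probe set of the 10 members. Groups were compared in limma 3.58.1 (R 4.3.3, lmFit and eBayes, no covariate), inhibitor minus control, with Benjamini-Hochberg adjustment over all genes at a threshold of 0.05. The fit was tested on simulated data. Alternatives covered the replicate block, each array left out, normalization, combining of probe sets, dim filters, variance estimates and array weights. All members, per list up to 2 genes a side by p, and the genes most alike in pattern were named. EGR2, EGR3, EGR4, NAB2, ZFP36 and single markers were added after their values were seen. Members and lists were chosen with earlier results of these data known. Genes that the annotation does not name were not analysed here.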

Additional observations from a re-analysis of the deposited data

How the results depend on the processing

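Limma called 0 genes higher and 0 lower under each alternative fit and for single probe sets, except RGPD4, called higher without control replicate 3, so leaving out arrays gave 0 to 1. An unadjusted p under 0.05 gave 551 higher and 590 lower. The count of members called was 0 under every alternative run. The replicate block gave 0 calls, so no call changed. It could not move the members' median of -0.10, because every replicate number is in both groups. Across genes, arrays with the same number deviated from their group means with correlations of -0.032, -0.040 and 0.17, and replicate numbers were treated as names only. The members' median of -0.10 became -0.19 with the brightest probe set and -0.15 to -0.035 leaving out arrays, the last without control replicate 1.

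The sign of a member turned in 13 cases. With the median of probe sets these were FOSB (0.23), ATF3 (0.030), EGR1 (0.32) and IER2 (-0.018). With the brightest probe set they were JUND (0.11), FOS (-0.23) and IER2 (-0.057), and with array weights FOS (-0.0038) and IER2 (-0.018). Without the dimmest 30% of probe sets FOS had -0.14, without control replicate 1 JUND had 0.036 and EGR1 0.0083, and without inhibitor replicate 2 EGR1 had 0.055. The cause was not tested. In limma JUN and FOSL2 were both at an unadjusted p above 0.05 without inhibitor replicate 2 or 3, without control replicate 2 or 3 and with the replicate block. JUN was so too without inhibitor replicate 1 and with the median of probe sets, and FOSL2 with the brightest probe set. FOSB was at an unadjusted limma p under 0.05 only with the brightest probe set (-0.39) and with array weights (-0.28).

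With the brightest probe set, list medians were 0.028 for other bZIP proteins, -0.037 for other immediate-early genes, 0.032 for the list around SRF and -0.17 for AP-1 targets. With the median of probe sets they were -0.11 for other immediate-early genes, -0.0050 for the kinases, -0.10 for AP-1 targets and -0.090 for EGR1 targets. Leaving out arrays gave -0.048 to 0.024 for other bZIP proteins, -0.074 to -0.037 for immediate-early genes and -0.12 to -0.037 for the SRF list. It gave -0.098 to -0.042 for the kinases, -0.12 to 0.0015 for AP-1 targets and -0.062 to 0.018 for EGR1 targets.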
